A study of Mus musculus with 12 samples.

Results

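Liver genes whose level differed between circadian time 0 h (CT0) and 12 h (CT12) in wild-type (WT) mice and also in mice lacking Bmal1 in the liver (KO) were selected from RNA sequencing of 12 libraries, 3 per genotype and time. A gene was kept when every CT12 library lay on the same side of every CT0 library in WT, and likewise in KO, with the same direction in both. The rule kept 992 of 10799 tested genes (9.19%), of which 379 were higher at CT12 (3.51% of the tested genes) and 613 were lower (5.68%). Genes were kept for their time difference, so that difference is a description of the set and was not tested again. Of the kept genes 59 have predicted or unnamed symbols and are counted only, and 108 more genes met the rule but were too low for the filter.

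All mice were labelled C57BL/6 and 8 weeks old, were males by the study's methods, and were fed freely and held in a 12 h light and 12 h dark cycle and then in darkness for the last 2 days, so CT0 marks the hour at which light would have come on. WT mice carried loxP sites around a Bmal1 exon (Bmal1 flox/flox), with no Cre stated. KO mice carried the same alleles plus a Cre recombinase under a liver-specific promoter that was not named, so Cre itself and the loss of Bmal1 cannot be told apart. The sample titles give 3 libraries per group, and the study's methods 3 mice, whereas the protocol text speaks of 2 animals per genotype and time, so p-values may in part measure technical spread. Depth recovered from the smallest values was 11460000 to 19020000 reads per library. Every WT library at CT0 was deeper (16900000 to 19020000) than every WT library at CT12 (13410000 to 16130000), while in KO the times overlapped. More transcript rows were above 0 in every CT0 library than in every CT12 library of its genotype. They numbered 34950 to 35080, then 33594 to 34394 in WT, and 34396 to 34566, then 34077 to 34179 in KO. What part this has in the kept falls was not tested.

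In mammals nearly every cell carries a molecular clock in which BMAL1, the product of Arntl, pairs with CLOCK on E-box DNA and drives the Per and Cry repressors. A master clock in the brain sets body temperature, feeding and glucocorticoid release, and these reach the liver by blood and nerves whether or not the hepatocyte clock runs. Genes of the liver can therefore be rhythmic through the local clock, through such body-wide signals or through both. CT0 is the start of the rest phase of a mouse and CT12 the start of its active phase.

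Arntl itself was among the kept genes. Its level (RPKM, a read density per unit of transcript length at equal depth) was 16.3, 15.7 and 15.7 in WT at CT0 and 1.26, 0.680 and 1.21 in WT at CT12. In KO it was 5.91, 5.73 and 7.45 at CT0 and 4.37, 3.59 and 4.01 at CT12. The KO libraries thus lay between the WT groups, below WT at CT0 and above WT at CT12. These values cover the whole transcript of 2904 bases (chr7:120350979-120457636, NCBIM37) and do not show whether the deleted exon was present, so they do not check the deletion.

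Differences below are between CT12 and CT0 on the log2(RPKM + 1) scale, positive when higher at CT12, which understates the change of genes with low RPKM. In the fit with genotype and time as terms, 1541 genes passed an adjusted p of 0.05 for time (14.3%), 561 higher (5.19%) and 980 lower (9.07%). Of the kept genes 904 passed, which follows from the rule. Scaling shifted the balance of directions. Quantile normalization kept 537 higher and 506 lower genes, and centring each library on its median kept 450 and 595. Their time calls were 799 higher and 813 lower, and 687 and 898. Under these scalings 797 and 866 of the 992 genes remained, as did 255 and 269 of the 275 genes that differed by at least 0.5 in both genotypes.

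Most kept differences were small. The median size was 0.44 in WT and 0.40 in KO, against 0.18 and 0.15 over all tested genes. A difference of at least 0.5 in both genotypes was seen in 275 kept genes, 91 higher and 184 lower at CT12, and one of at least 1 in 41, 24 higher and 17 lower. Only 5 reached 2 in both, which were Alas1, Mfsd2a and Tsku among the rises and S100a8 and S100a9 among the falls. The KO difference was 0.866 times the WT difference at the median, and in 617 genes the WT difference was the larger. An adjusted p under 0.05 within each genotype was reached by 146 kept genes, a count that fell to 44 without KO library 1 at CT12, 46 without KO library 3 at CT0, 65 without KO library 2 at CT12 and 83 without WT library 2 at CT0.

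**Figure D1:**
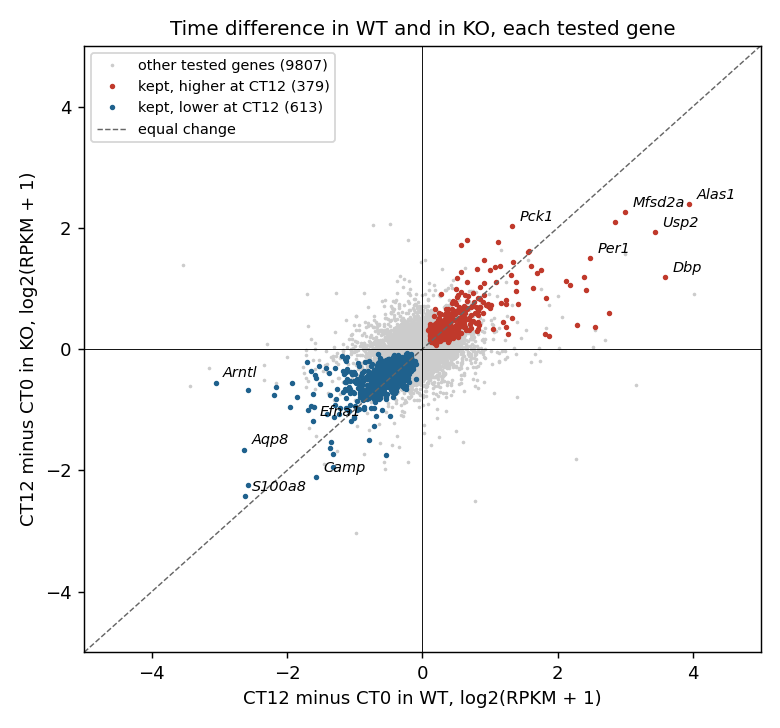
Time difference (CT12 minus CT0, log2(RPKM + 1)) in WT on the x axis and in KO on the y axis for each of 10799 tested genes, with kept genes in red (379 higher) and blue (613 lower) and the dashed line marking equal change. The kept genes lie in the quadrants where both genotypes share a direction, and Usp2, Dbp and Arntl show a larger difference in WT than in KO.

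Other genes were separated by time in one genotype or in opposite ways. Among tested genes 2581 were separated in WT alone and 1404 in KO alone, and 110 were separated in both but in opposite directions, 79 of them lower at CT12 in WT and higher in KO. At the edge of the rule, Clic1, Aldh1b1 and Chmp2b were kept with the narrowest gaps between times, 6.9e-05 to 0.00027 on the log2 scale, and each was lost under at least 1 of the 2 scalings. Chmp2b, a subunit of the membrane-remodelling ESCRT-III complex, differed by -0.15 with an adjusted p of 0.098 for time in limma. Ppm1g, a protein phosphatase, was left out by an overlap of similar size, and Rab15 and Mfap5 because libraries of both times were listed at 0.

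The largest rises were led by Alas1, which encodes the rate-limiting enzyme of haem synthesis in liver (chr9:106135786-106150457). Its RPKM was 45.9, 37.2 and 24.99 in WT at CT0 and 659, 379.6 and 679 at CT12. The KO libraries read 81.9, 44.8 and 28.1 at CT0, then 386, 225 and 183 at CT12. Every CT12 library was above every CT0 library of either genotype, and the difference was 3.95 ± 0.39 in WT and 2.39 ± 0.39 in KO (SE, n = 3 per group, limma). Exons of Alas1 overlap those of another annotated gene, and whether reads were counted by strand is not given in the sources used here.

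Mfsd2a, a transporter of lysophosphatidylcholine that rises in fasted liver, and Tsku, a secreted protein made by hepatocytes, had similar differences. Mfsd2a (chr4:122624093-122638431) was 2.93, 2.57 and 2.81 RPKM in WT at CT0, 25.1, 17.98 and 54.0 in WT at CT12, 5.18, 1.27 and 1.14 in KO at CT0, and 10.4, 9.23 and 26.9 in KO at CT12. Tsku (chr7:105499178-105509838) was 11.8, 7.48 and 4.06, then 56.8, 53.9 and 62.8 in WT, and 20.01, 3.07 and 6.24, then 32.5, 49.1 and 27.6 in KO. KO library 1 at CT0 was the highest CT0 library for both genes, and library 3 was the highest CT12 library for Mfsd2a in each genotype. The differences over both genotypes were 2.63 ± 0.34 and 2.47 ± 0.35 (SE).

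Usp2, a ubiquitin protease with rhythmic liver expression, was 0.463, 0.566 and 0.239 RPKM in WT at CT0 and 13.3, 16.4 and 13.7 at CT12. The KO libraries read 0.993, 0.662 and 0.00 at CT0, then 5.41, 4.57 and 4.09 at CT12. The genotypes overlapped at CT0, whereas KO was below WT in every library at CT12. The differences were 3.44 ± 0.21 in WT and 1.93 ± 0.21 in KO (SE), and an exon of Usp2 overlaps one of Rnf26.

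Angptl4, a secreted inhibitor of lipoprotein lipase induced by fasting, Herpud1, a factor of protein degradation at the endoplasmic reticulum, and Il6ra, the receptor of interleukin 6, had differences of similar size in WT and KO. Angptl4 differed by 1.57 ± 0.41 in WT and 1.61 ± 0.41 in KO, Herpud1 by 1.57 ± 0.20 and 1.598 ± 0.20, and Il6ra by 1.33 ± 0.14 and 1.44 ± 0.14 (SE). Herpud1 rose from 110.0, 67.9 and 83.4 RPKM to 269, 222 and 277 in WT and from 54.8, 50.9 and 46.2 to 153, 119 and 204 in KO. For these genes the KO group means lay lower at both times, with a genotype difference (KO minus WT) of -0.97, -0.73 and -0.50 and adjusted p of 0.044, 0.0048 and 0.0065 in limma. Angptl4 lost that genotype call in 9 of 12 fits that each left out 1 library.

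Pck1, which encodes the cytosolic enzyme that commits carbon to gluconeogenesis, had the larger difference in KO, 2.03 ± 0.23 against 1.33 ± 0.23 in WT (SE). It was 362, 475 and 435 RPKM in WT at CT0, 859.5, 1089.5 and 1270.05 in WT at CT12, 337, 209 and 188 in KO at CT0, and 891, 821 and 1251.54 in KO at CT12. The CT12 groups overlapped between genotypes, and all 3 KO libraries at CT0 lay below the WT libraries. The other leading rises were Mcm10, a replication factor, with 1.61 in WT and 1.37 in KO, St3gal5, the sialyltransferase that makes ganglioside GM3, with 1.76 and 1.31, and Arhgef26, a guanine nucleotide exchange factor, with 1.70 and 1.25.

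**Figure D2:**
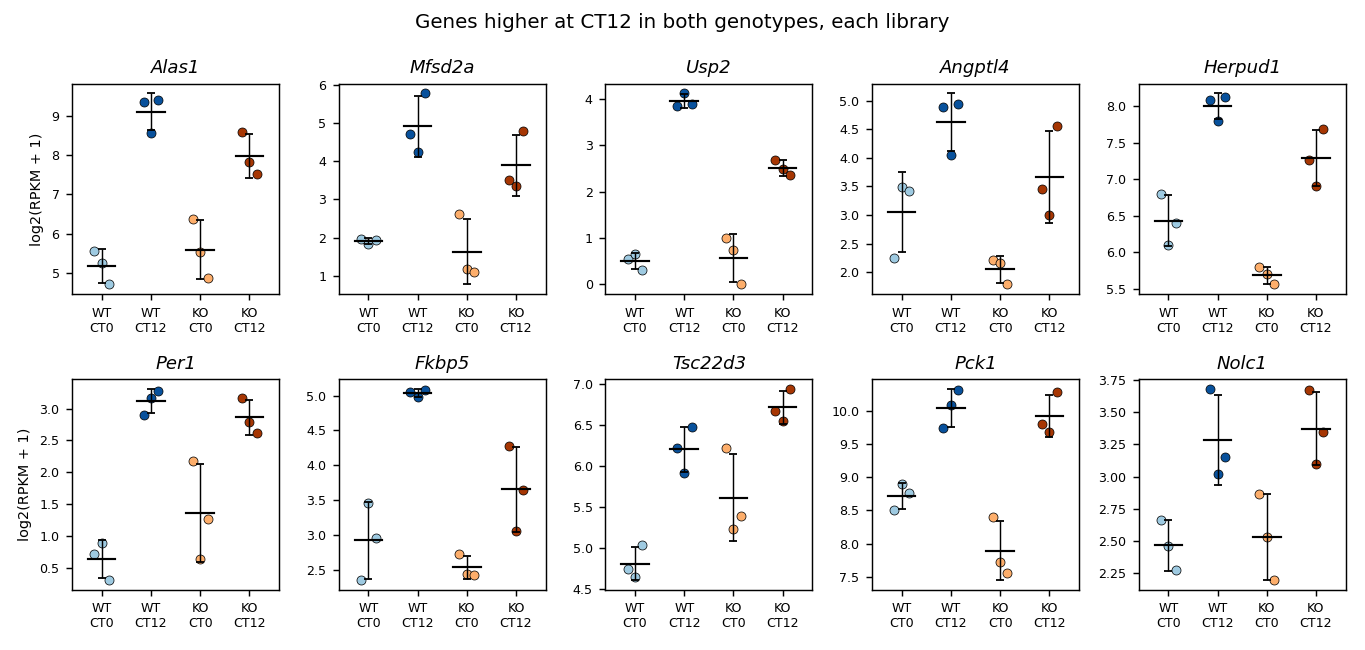
log2(RPKM + 1) on the y axis in each library (points, 3 per group), with the group mean and SD, for 10 kept genes higher at CT12, in WT at CT0 and CT12 and in KO at CT0 and CT12 along the x axis. In each panel the CT12 points of a genotype lie above its CT0 points, and in the Usp2 panel KO at CT12 lies below WT at CT12.

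Among genes of the clock and its output, 19 were tested, 8 were called higher and 3 lower at CT12, and 5 and 2 were kept. Over all tested genes the shares were 5.19% and 9.07% called, and 3.51% and 5.68% kept. Per1, the repressor gene that also answers to glucocorticoids and cAMP, differed by 2.48 ± 0.31 in WT and 1.498 ± 0.31 in KO (SE). It was 0.640, 0.848 and 0.239 RPKM in WT at CT0, 6.50, 7.96 and 8.72 in WT at CT12, 3.52, 0.566 and 1.41 in KO at CT0, and 7.97, 5.94 and 5.16 in KO at CT12. WT and KO overlapped at CT12, and KO library 1 was the highest at CT0. The Per1 row is a transcript of 496 bases with 2 to 58 reads per library, and its next row differed by 1.90.

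The remaining kept clock genes had larger differences in WT than in KO. Dbp, a transcription factor driven by BMAL1 through E-boxes, differed by 3.59 in WT and 1.19 in KO, Per3 by 2.55 and 0.36, Tef by 2.28 and 0.40, and Nr1d2, which encodes REV-ERBβ, by 1.83 and 0.84. Among the falls, Arntl differed by -3.06 and -0.56, and Npas2, a partner of BMAL1 and paralog of Clock, by -1.64 and -0.36. The interaction passed for Dbp, Per3, Tef, Arntl and Npas2 (adjusted p of 0.0078, 0.00073, 0.00014, 7.2e-05 and 0.0019, limma) and did not for Nr1d2 (0.18). Without KO library 3 at CT0 the KO difference of Per3 was 0.23. Dbp in KO was 1.51, 1.84 and 1.63 RPKM at CT0 and 3.29, 8.11 and 4.66 at CT12, against 21.7, 33.4 and 17.3 in WT at CT12. Per2 and Gm129 were called higher at CT12 but not kept.

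Genes of the glucocorticoid response, which are switched on when the hormone peaks before the active phase, included 4 kept rises among 15 tested genes, with 5 called higher and 1 lower. Over all tested genes 3.51% were kept as rises, 5.19% were called higher and 9.07% lower. The median difference of the list was 0.63, against -0.03 over all tested genes. Tsc22d3, which encodes the anti-inflammatory factor GILZ, was 25.9, 24.1 and 31.9 RPKM in WT at CT0, 73.7, 59.3 and 87.6 in WT at CT12, 73.6, 36.7 and 41.0 in KO at CT0, and 100.5, 92.3 and 121.6 in KO at CT12. KO library 1 at CT0 reached the level of WT at CT12, and the other CT0 libraries stayed below it.

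Fkbp5, a chaperone of the glucocorticoid receptor, was 4.09, 9.95 and 6.78 RPKM in WT at CT0, 32.2, 30.4 and 32.9 in WT at CT12, 5.61, 4.43 and 4.38 in KO at CT0, and 18.3, 7.29 and 11.5 in KO at CT12. WT at CT12 was tight and above every KO library. Zbtb16, a transcription factor, differed by 1.12 ± 0.23 in WT and 1.76 ± 0.23 in KO, and Errfi1, an inhibitor of the EGF receptor, by 1.15 ± 0.25 and 1.36 ± 0.25 (SE). Tat, a classical glucocorticoid target, differed by 0.63 over both genotypes with an adjusted p of 0.044 in limma but was not kept, and it lost that call in 10 of 12 fits without 1 library. Sult1e1, the oestrogen sulphotransferase, was the list member called lower.

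Of 20 tested genes of insulin signalling and feeding, 2 were called higher and 3 lower, against 5.19% and 9.07% over all tested genes. Pck1 and Foxo1, the transcription factor that insulin keeps out of the nucleus, were kept as rises, and Irs1, an insulin receptor substrate, and Scd1, the stearoyl-CoA desaturase, as falls, 2 of 20 on each side against 3.51% and 5.68%. Irs1 lost its time call in 2 alternatives, and the difference of Scd1 was -0.54 in WT and -1.75 in KO with an adjusted p of 0.056 for time. Without KO library 1 at CT0 the KO difference of Scd1 was -1.10, and quantile normalization did not keep the gene. Of 19 genes of fasting and PPARα, 5 were called higher and 2 lower. Kept rises were Angptl4, Cpt1a, the gatekeeper of mitochondrial fatty acid oxidation, and Plin4, a lipid droplet protein. Kept falls were Plin2, another lipid droplet protein, and Pdk4, the kinase that shuts off pyruvate dehydrogenase.

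Cpt1a was 50.6, 60.6 and 63.1 RPKM in WT at CT0 and 108, 92.2 and 116 at CT12, and 29.9, 42.6 and 34.8 in KO at CT0 and 63.7, 72.3 and 85.1 at CT12. KO lay below WT at each time. Pdk4 went the other way, at 3.11, 8.38 and 5.18, then 0.961, 0.840 and 0.984 in WT, and 10.4, 6.43 and 8.46, then 3.24, 3.88 and 3.78 in KO. Both are known targets of PPARα, and they differed in opposite directions with time and with genotype. Of the 19 genes, 10 were lower in KO and 1 higher in the test of genotype, against 3.5% and 6.07% of all tested genes.

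Of 18 tested genes for making ribosomes 10 were called higher and 0 lower by limma (12 and 0 at an unadjusted p under 0.05), against 5.19% called higher over all tested genes, and 7 were kept as rises, against 3.51%, which were Ncl, Npm1, Nop56, Polr1a, Polr1b, Nolc1 and Gnl3. The list median was 0.35 in WT and 0.38 in KO. Nolc1, a nucleolar chaperone of small nucleolar ribonucleoproteins, was 5.34, 4.51 and 3.83 RPKM in WT at CT0, 11.8, 7.10 and 7.90 in WT at CT12, 6.28, 4.77 and 3.58 in KO at CT0, and 11.7, 7.56 and 9.18 in KO at CT12. Library 1 was the highest of its group at all 4 combinations of genotype and time. Polr1a, the large subunit of RNA polymerase I, differed by 0.57 ± 0.12 and 0.43 ± 0.12, and Gnl3, a nucleolar GTPase, by 0.94 ± 0.22 and 0.72 ± 0.22 (SE). Without WT library 1 at CT12 the WT difference moved from 0.50 to 0.23 for Nop56, from 0.25 to 0.12 for Npm1 and from 0.37 to 0.24 for Polr1b. Nop56 and Gnl3 share exon positions with other genes. Of 28 cytosolic ribosomal protein genes 0 were called for time by limma (1 at an unadjusted p under 0.05) and 0 were kept.

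Rbm3, an RNA-binding protein induced by mild cold, was kept and differed by 0.54 ± 0.12 (SE), as 1 of 6 tested cold-inducible genes. Its adjusted p within a genotype was 0.11 in WT and 0.092 in KO (limma). Without KO library 1 at CT0 its KO difference moved from 0.61 to 0.35. Of the 6 genes 4 had higher and 2 lower levels at CT12, and Cirbp was among the lower at -0.39, not called for time. Of 18 heat shock genes 4 were called higher, Hspa8, Hspa1b, Dnaja1 and Dnajb1, and 0 were kept, although quantile normalization kept 2. Over all tested genes 5.19% were called higher and 3.51% kept as rises. Dnajb1 lost its call in 10 of 12 fits without 1 library and Hspa8 in 1. Bnip3, a mitophagy receptor, was the kept gene of autophagy and differed by 1.19 in WT and 0.45 in KO.

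Of 17 genes for actin, tubulin and targets of serum response factor (SRF), a regulator that responds to actin state, 0 were called higher and 12 lower by limma (0 and 13 at an unadjusted p under 0.05), and 9 were kept as falls. Over all tested genes 9.07% were called lower and 5.68% kept as falls. The 9 were Actb, Vcl, Tuba1a, Tuba1b, Tuba1c, Tuba4a, Cnn2, Tagln2 and Tpm4, and the list median was -0.88 in WT and -0.52 in KO. Cnn2, the actin-binding calponin 2, was 3.94, 3.01 and 3.90 RPKM in WT at CT0, 1.81, 1.03 and 1.05 in WT at CT12, 4.56, 4.10 and 4.33 in KO at CT0, and 1.42, 2.69 and 2.85 in KO at CT12. Vcl, the focal adhesion protein vinculin, differed by -0.52 and -0.54, and Actb, cytoplasmic actin, by -0.88 and -0.52. Reads of Tuba1a, Tuba1b and Tuba1c cannot be assigned with certainty, since these genes are nearly identical. The KO differences of Tuba1c and Tuba1b moved from -0.70 to -0.34 and from -0.57 to -0.32 without KO library 1 at CT0. Tubb2a, another tubulin, differed by -3.43 in WT and -0.61 in KO, or -0.25 in KO without KO library 1 at CT0, and was not kept.

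To show sequence beside these groups, promoters of RefSeq (GRCm38.p6, 250 bases before to 50 after the start) were matched to 8674 tested genes, of which 820 were kept genes, and searched on both strands. The E-box CACGTG bound by BMAL1 and CLOCK was in 13.0% of kept rises and 12.1% of kept falls, against 11.9% of the tested genes and 7.2% of all promoters. The first 3 shares count a gene with a match in any of its promoters. The last counts 32851 single promoters, so it is not a like comparison. The cAMP response element TGACGTCA was in 3.7%, 2.6%, 3.7% and 1.8%, and the CArG box of SRF in 2.5%, 2.8%, 1.5% and 1.6%, in the same order. The glucocorticoid response element was in 0.0%, 0.8%, 0.4% and 0.5%. In the same order the GC box GGGCGG was in 78.1%, 63.3%, 67.9% and 35.7%, and CCACG, which overlaps some E-boxes, in 61.1%, 48.6%, 51.7% and 32.8%. The short CREB site TGACG, which also lies inside the cAMP response element, was in 135 of 324 kept rises and 139 of 496 kept falls, against 35.8% of the tested genes. The CCAAT box was in 40.4%, 46.0%, 43.3% and 37.4%, the forkhead site TGTTTAC in 2.2%, 4.0%, 3.4% and 3.6%, the D-box in 2.8%, 2.0%, 2.0% and 2.3%, and the elements of REV-ERB and of heat shock in at most 1.0% of any group. These shares were not tested. The following 66 to 70 bases, or 63 for Vcl, show 6 such matches in capitals, with the motif at position -166 (Per1), -169 (Fkbp5), -75 (Aqp8), -51 (Errfi1), -56 (Cnn2) and -227 (Vcl) from the start. The first 3 hold an E-box, Errfi1 the cAMP response element, and Cnn2 and Vcl a CArG box. The CArG windows come from promoters of actin-related kept falls and the others from named kept genes. A CArG box was also found for Herpud1, a kept rise, at position 37 from the start. None was found for the other kept genes of the actin and tubulin list. They lie at chr11:69098753-69098818 (plus), chr17:28486283-28486348 (minus), chr7:123462189-123462254 (plus), chr4:150854989-150855056 (plus), chr10:79988514-79988583 (plus) and chr14:20929148-20929210 (plus), and are read 5′ to 3′ on the strand of the gene.
Per1: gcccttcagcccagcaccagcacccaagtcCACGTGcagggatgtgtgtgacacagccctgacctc
Fkbp5: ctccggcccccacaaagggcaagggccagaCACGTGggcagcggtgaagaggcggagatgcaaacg
Aqp8: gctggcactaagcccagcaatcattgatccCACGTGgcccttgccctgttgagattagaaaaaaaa
Errfi1: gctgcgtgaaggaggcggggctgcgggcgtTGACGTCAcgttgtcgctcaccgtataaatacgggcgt
Cnn2: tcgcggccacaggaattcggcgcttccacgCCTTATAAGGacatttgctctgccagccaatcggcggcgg
Vcl: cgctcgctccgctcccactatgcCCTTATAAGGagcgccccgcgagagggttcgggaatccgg
The E-box share of the kept genes was close to that of the tested genes. A match is a run of letters in this window and does not show that a factor binds there.

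S100a8 and S100a9, the paired calcium-binding proteins abundant in neutrophils (chr3:90472993-90473956 and chr3:90496554-90499643), had the largest falls and differed by -2.53 ± 0.30 and -2.41 ± 0.27 over both genotypes (SE). S100a8 was 41.2, 19.6 and 10.7 RPKM in WT at CT0, 2.69, 1.91 and 3.04 in WT at CT12, 65.9, 43.7 and 84.3 in KO at CT0, and 18.8, 10.02 and 6.53 in KO at CT12. All KO libraries at CT0 were above all WT libraries at CT0, and likewise at CT12. Camp and Ngp, granule proteins, and Ltf, lactoferrin, differed by -1.84, -1.63 and -1.53, and Retnlg, a resistin-like protein of myeloid cells, by -1.44. Their levels at CT12 in WT were below 1 RPKM in every library.

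All 5 neutrophil markers (S100a8, S100a9, Ngp, Camp and Mpo) were kept as falls and 4 of them were called higher in KO, against 5.68% and 6.07% of all tested genes. Of the 4, Ngp lost the genotype call in 8 and Camp in 6 of 12 fits that each left out 1 library. Their time call was lost in 0 of these fits. Leaving out WT library 1 at CT0 moved the WT time difference of Camp from -1.57 to -0.95 and of Ngp from -1.32 to -0.85. That of Mpo moved from -0.79 to -0.52. The summed level of the 5 markers was 29.98 to 106.5 RPKM in WT at CT0 and 5.838 to 7.929 at CT12, and 98.45 to 208.4 and 16.99 to 42.82 in KO. In bulk liver, fewer cells of a type and less RNA per cell cannot be told apart.

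All 8 endothelial markers had lower levels at CT12, 5 passed the time test and Pecam1, Lyve1, Cdh5 and Tek were kept, with sums of 108.3 to 128.6 RPKM at CT0 and 72.77 to 85.45 at CT12 in WT, but 122.5 to 134.3 and 59.93 to 131.9 in KO, where the times overlapped. All 8 stellate and fibroblast markers had lower levels, 5 passed and Pdgfrb and Acta2 were kept, with sums of 132.3 to 182.5 and 95.69 to 112.0 in WT and 166.8 to 200.9 and 120.0 to 154.8 in KO. Over all tested genes 5.19% were called higher and 9.07% lower, and 3.51% were kept as rises and 5.68% as falls. Pecam1 lost its time call in 4 fits that each left out 1 library. Without KO library 1 at CT12 the KO difference moved from -0.61 to -0.30 for Pecam1, from -0.49 to -0.30 for Cdh5 and from -0.33 to -0.12 for Tek. Tek was kept with a gap between times of 0.0078 on the log2 scale. Of 8 Kupffer cell markers 7 had lower levels, 4 were called lower and 0 were kept, and of 4 bile duct markers Krt7 was kept as a fall. Of 5 erythroid markers and 1 lymphocyte marker tested, 0 were called for time by limma, where 0 and 1 had an unadjusted p under 0.05. The erythroid sums overlapped between times in WT (160.1 to 379.8 RPKM at CT0, 107.5 to 189.6 at CT12) and were higher at CT12 in KO (212.6 to 223.1, then 245.6 to 306.8). Of 9 hepatocyte markers 2 were kept, Cyp2e1 and Hnf4a, both as rises, and quantile normalization kept neither Cyp2e1 nor Krt7. The 9 summed to 60660 to 67630 RPKM at CT0 and 50540 to 60300 at CT12 in WT, and to 39820 to 49680 and 40330 to 44220 in KO, so every KO library lay below every WT library. Alb, which encodes serum albumin and had a mean of 25210 RPKM, was the 1 gene of the 9 called for genotype (-0.99, adjusted p of 4.96e-05, limma), and without it the sums of WT and KO overlapped (27910 to 29760 RPKM at CT0 and 23930 to 26030 at CT12 in WT, 21350 to 28440 and 26100 to 28720 in KO). All 7 markers of pancreas and fat were below 1 RPKM on average, with Cpa1 and Pnlip listed at 0 in every library. What part these cell markers have in the falls of actin, tubulin and other genes was not tested.

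**Figure D3:**
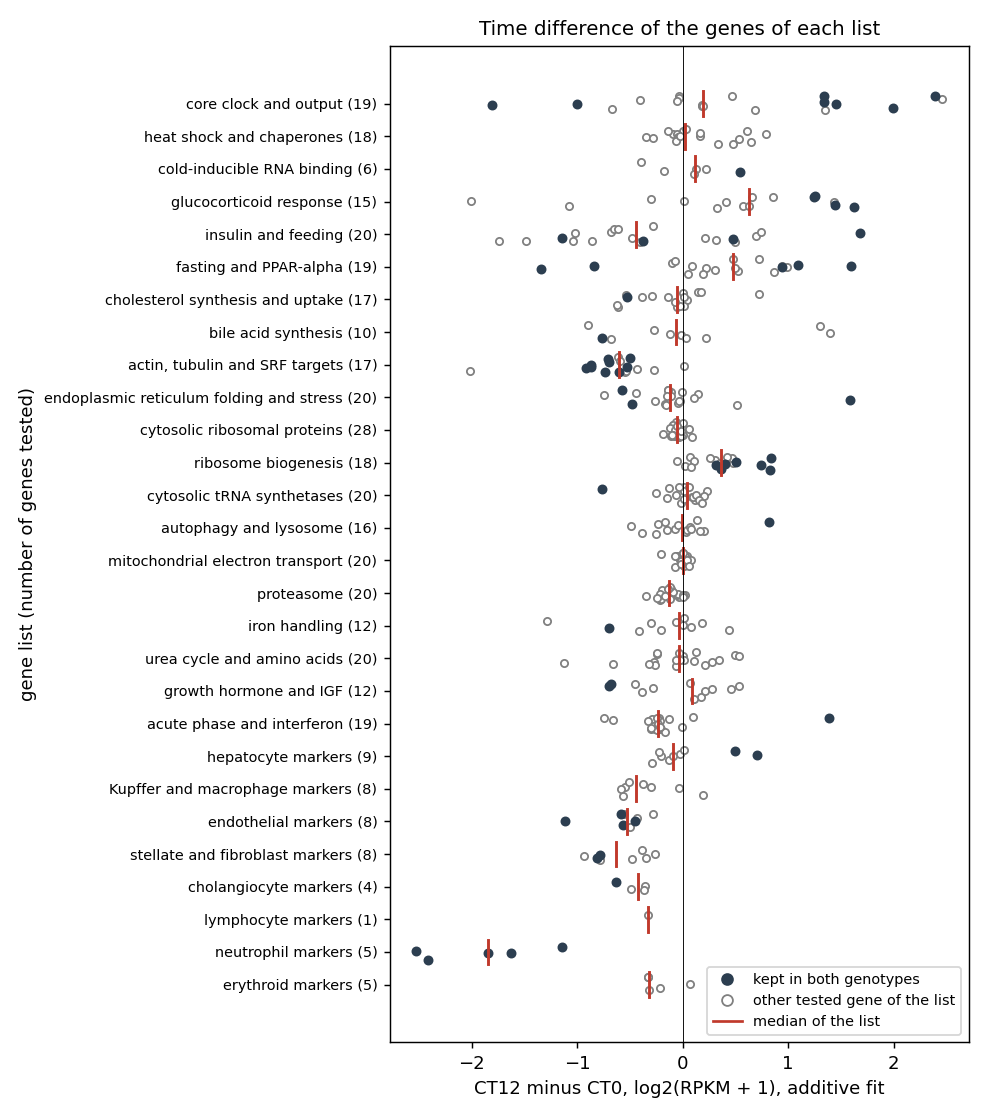
Time difference (CT12 minus CT0, log2(RPKM + 1), x axis) of each tested gene in 20 pathway lists and 8 cell type marker lists (y axis, number tested in brackets), with kept genes filled, other genes open and the list median in red. Filled points lie to the right for ribosome biogenesis and the glucocorticoid response and to the left for actin and tubulin genes and for markers of neutrophils, endothelium and stellate cells.

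Falls outside the markers included Aqp8, the water channel of hepatocytes and bile canaliculi (chr7:130605808-130611517). It was 81.5, 97.4 and 164 RPKM in WT at CT0, 15.5, 15.9 and 19.2 in WT at CT12, 233, 95.9 and 116 in KO at CT0, and 42.7, 34.3 and 53.4 in KO at CT12. The differences were -2.63 ± 0.31 and -1.66 ± 0.31 (SE). KO exceeded WT in every library at CT12, whereas at CT0 the genotypes overlapped.

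Efna1, a ligand of Eph receptors, differed by -1.62 ± 0.21 in WT and -1.19 ± 0.21 in KO (SE), and the genotypes overlapped at CT0. Grk5, a kinase that desensitises G-protein-coupled receptors, was 4.25, 3.56 and 3.52 RPKM in WT at CT0, 1.06, 0.516 and 0.848 in WT at CT12, 25.6, 21.9 and 22.7 in KO at CT0, and 8.06, 11.8 and 12.2 in KO at CT12. Its levels in KO were above those in WT at both times, and the time difference was -1.41 and -1.08. Tagln, a smooth muscle actin-binding protein, differed by -1.31 and -1.12 and shares exon positions with Pcsk7, Serpina7, the thyroxine-binding globulin, by -1.23 and -1.06, and Chrna4, a nicotinic receptor subunit read from a 363-base row, by -1.36 and -1.63. The KO difference of Chrna4 rests on KO library 1 at CT0, at 13.9 RPKM against 1.55 and 1.68 in the other CT0 libraries, and was -0.79 without it.

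**Figure D4:**
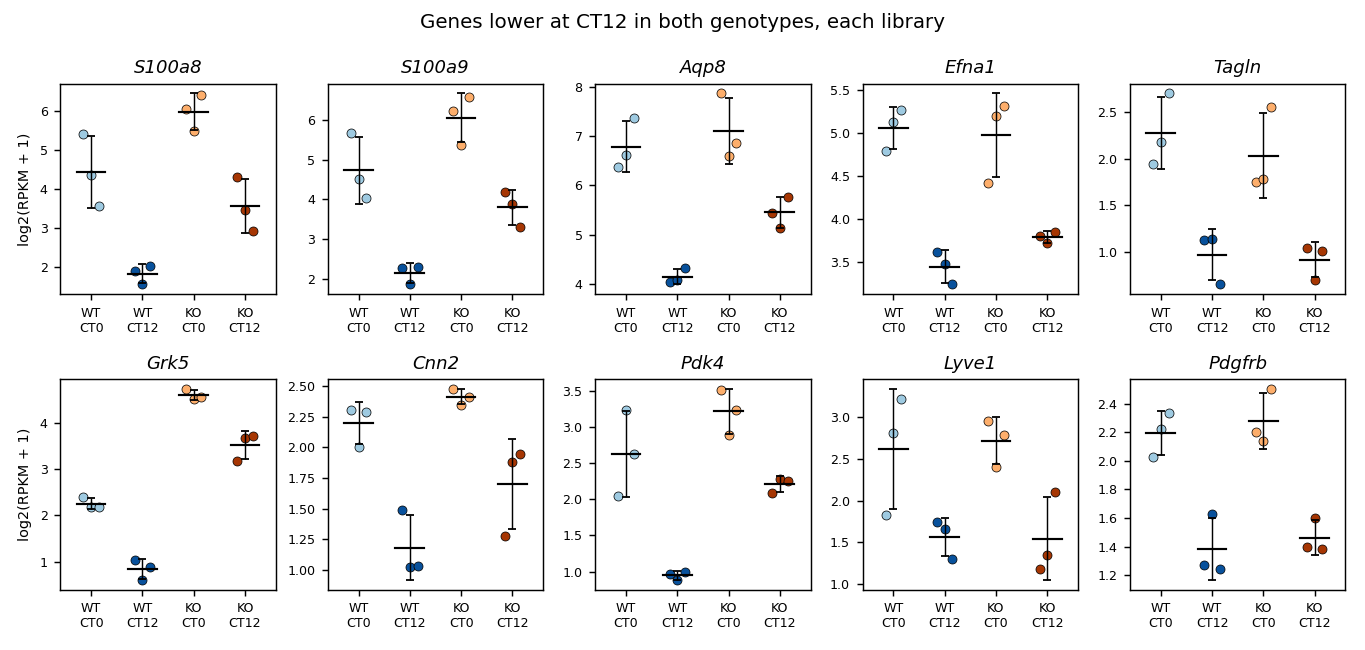
log2(RPKM + 1) on the y axis in each library (points, 3 per group), with the group mean and SD, for 10 kept genes lower at CT12, in WT at CT0 and CT12 and in KO at CT0 and CT12 along the x axis. The CT12 points of each genotype lie below its CT0 points, and the means of S100a8, S100a9 and Grk5 lie higher in KO than in WT.

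Of 20 genes of the endoplasmic reticulum 3 were kept, against 9.19% of all tested genes. Calr and Pdia4, chaperones of the endoplasmic reticulum, fell by 0.71 and 0.68 in WT and by 0.43 and 0.29 in KO on the log2 scale, while Herpud1 of the same list rose. Tars, the threonyl-tRNA synthetase, Sc5d of cholesterol synthesis, Hfe2, the hemojuvelin that sets hepcidin, Igfbp3, a carrier of insulin-like growth factors, Stat5b, the transcription factor of growth hormone, and Abcb11, the bile salt export pump, were kept as falls. Stat5b was 13.0, 16.6 and 17.6 RPKM in WT at CT0 and 6.61, 8.19 and 7.32 at CT12, and 15.5, 16.1 and 16.6 in KO at CT0 and 11.1, 11.9 and 12.7 at CT12. Abcb11 and Pdia4 were kept under centring but not under quantile normalization. Of 20 genes of mitochondrial electron transport and 20 of the urea cycle and amino acids, 0 were kept, with 0 of the first called for time by limma (1 at an unadjusted p under 0.05). The proteasome list of 20 genes held 1 called lower and 0 kept, and of 19 acute phase and interferon genes only Il6ra was called and kept. Of 10 bile acid genes 2 were called higher and 2 lower, of 17 cholesterol genes 2 lower, of 20 tRNA synthetases 2 lower, of 12 iron genes 2 lower and of 12 growth hormone genes 2 lower. Over all tested genes 5.19% were called higher and 9.07% lower.

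The mean difference between genotypes does not enter the rule, because each time comparison was made within a genotype, and it was tested in the same fit. The rule does favour genes with little spread within groups, and that spread also enters the genotype test. The share of genotype calls among kept genes and that over all tested genes are therefore not a like comparison. Of the kept genes 164 passed an adjusted p of 0.05 (16.5%), against 1034 of all tested genes (9.57%), 656 higher in KO (6.07%) and 378 lower (3.5%). The direction of the genotype difference went with that of time. Of the 379 kept rises 54 were lower in KO and 2 higher, and of the 613 kept falls 101 were higher and 7 lower. Within a single time fewer of them passed, 10 of these 54 rises at CT0 and 37 at CT12, and 23 and 77 of these 101 falls. Alb was lower and the summed neutrophil markers were higher on average in KO (values above), and their part in these counts was not tested.

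Genes called for time but not kept had counts of the same kind, with 18 of 221 rises lower in KO and 5 higher, and 65 of 416 falls higher and 7 lower. Among tested genes neither kept nor called for time, 196 of 4071 with higher levels at CT12 were lower in KO and 146 higher. Of the 5099 such genes with lower levels at CT12, 337 were higher in KO and 96 lower. The pattern was therefore not limited to the kept genes or to genes called for time, and the differences in share were not tested. The counts moved with the libraries. Without KO library 2 at CT0, 174 kept falls were higher in KO, and over the fits that each left out 1 library the counts were 75 to 174 for falls higher in KO, 4 to 19 for falls lower, 40 to 75 for rises lower and 1 to 9 for rises higher. Under quantile normalization all tested genes gave 539 higher and 496 lower in KO, and under centring 528 and 491, and the kept genes gave 70 rises lower and 79 falls higher, and 64 and 90.

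Dio1, the deiodinase that makes active thyroid hormone, was the kept rise with the largest loss in KO, at -2.38 ± 0.19, followed by Upp2, a uridine phosphorylase, at -1.64 ± 0.33 (SE, adjusted p of 1.3e-05 and 0.0077, limma). Nr1d2 at -1.46, Saa4, a constitutive serum amyloid A, at -1.43, and Mcm10 at -1.29 came next. Among kept falls, Slc34a2, a phosphate transporter, and Grk5 were higher in KO by 2.52 each, Loxl4, a lysyl oxidase homolog, by 2.29, Gstm6, a glutathione S-transferase, by 1.67, and S100a8 by 1.65. Each of these genes had the same direction of time in both genotypes by the rule, and Dio1 differed more between times in KO (1.72) than in WT (0.58). Of the kept genes 33 had an interaction of genotype and time (3.33%, against 1.49% of tested genes), and the KO difference was the smaller in 32 of them, as in 118 of the 128 genes with an interaction outside the set. That count describes the unequal size of the changes, since the rule used both.

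**Figure D5:**
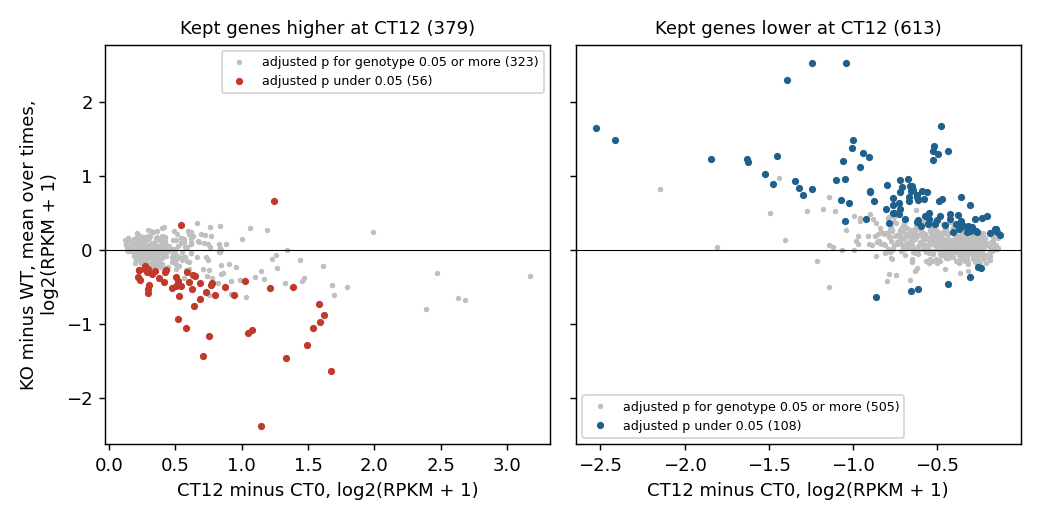
Difference between genotypes (KO minus WT, mean over both times, y axis) against the time difference (x axis), both on the log2(RPKM + 1) scale, for 379 kept genes higher at CT12 (left) and 613 lower (right), with genes past an adjusted p of 0.05 for genotype in color. Coloured points lie mostly below 0 on the left (54 of 56) and above 0 on the right (101 of 108).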

How the data were processed

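Livers of 12 libraries, WT and KO at CT0 and CT12, were analysed, grouped by sample title. The authors deposited RPKM values, scaled to transcript length and depth, for 46585 transcripts per library. The submitters' processing notes name TopHat2, bedtools 2.19.1 and mm9, and strand use in counting is not given in the sources used here. Lengths and positions came from the NCBIM37 annotation, and 95.5% of rows matched. RPKM times length was a whole number of reads, within 0.05, for 95.5% to 96.2% of the low values, which gave the depth.

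For each of 22322 symbols the transcript with the highest mean RPKM was used, and 10799 genes were tested whose mean reached 1 RPKM in any of the 4 groups. Values were log2(RPKM + 1). The test was limma 3.58.1 in R 4.3.3 (genotype and time as terms, trend in the prior variance, two-sided, Benjamini-Hochberg adjusted over tested genes), and the interaction came from a model of 4 group means. Genes named were the 12 largest kept rises and falls by the smaller of the WT and KO differences, up to 4 kept genes per list, edge cases and Arntl. The members and lists were chosen with earlier results of these data known, and the genes named for genotype, or beyond this rule in a list, were chosen after their values were seen. Python 3.11.15 and pandas 2.3.3 joined the tables.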

Additional observations from a re-analysis of the deposited data

Results flagged for a closer look

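Of 99 named genes, 13 had a time difference that differed between genotypes by the interaction test in limma, where the value is the KO difference minus the WT difference. Among kept rises it was -1.515 for Usp2 (3.442 in WT and 1.926 in KO, adjusted p = 0.02891), -2.406 for Dbp (3.592 and 1.186, 0.007753), -2.191 for Per3 (2.551 and 0.36, 0.0007271), -1.888 for Tef (2.283 and 0.3953, 0.000135) and -2.155 for Upp2 (2.753 and 0.5973, 0.001869). Dio1 was the kept rise with the larger difference in KO, at 1.145 (0.576 and 1.721, adjusted p = 0.02418). Among kept falls it was 2.501 for Arntl (-3.058 and -0.5575, adjusted p = 7.173e-05), 1.286 for Npas2 (-1.642 and -0.3565, 0.001869), 1.536 for Loxl4 (-2.159 and -0.623, 0.03205) and 0.809 for Abcb11 (-1.168 and -0.3591, 0.02891). Among named genes outside the set it was -1.871 for Per2 (2.285 and 0.4141, adjusted p = 0.003664), -3.108 for Gm129 (4.014 and 0.9064, 0.005346) and 2.829 for Tubb2a (-3.434 and -0.6054, 0.005147). The direction was the same in both genotypes for all 13, which the rule fixed in advance for the 10 kept genes. In each of the 13 except Dio1 the change was the smaller in KO.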

How the results depend on the processing

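The count of genes called for time was 913 with the second highest transcript row of each gene and 611 with a difference of at least 0.5. The count of kept genes was 565 with the second row, 275 with a difference of at least 0.5 in both genotypes and 146 with an adjusted p under 0.05 in both. With the second row 512 kept genes were called for time, 94 for genotype and 19 for the interaction, and fewer genes (5960) had such a row. Quantile normalization, centring, a smaller pseudocount (0.1), a stricter filter (1 RPKM or more in each library), dropping the filter, summing of rows, the replicate block and each fit without 1 library left the counts called for time, kept, kept and called for time, kept and called for genotype, and kept with an interaction within 1.5 times. The exception was the count with an adjusted p in both genotypes, which was 87 with no filter and 44 to 127 without 1 library. Leaving out 1 library gave 1060 to 1621 time calls and 1102 to 1403 kept genes, and the count of kept genes is larger there because fewer libraries are easier to separate. With the replicate number as a block 1403 genes were called for time, 843 of the kept genes among them and 146 for genotype. Over all tested genes the numbers gave no sign of pairing, as deviations of same-numbered libraries correlated by 0.00825 on average (-0.066 to 0.139). A mean over all genes cannot show whether some genes share an effect of the number. Of the values of named genes under alternatives, 1949 kept their side of the threshold, 38 lost it (Tat and Dnajb1 in 11 each, Rab15 in 7, Pecam1 in 4, Irs1 in 2, Chrna4 in 2 and Hspa8 in 1), 11 gained it and 0 changed direction, and the cause was not tested. Groups of 3 libraries limit the precision, and genes with few reads, such as Camp with 0 to 96 per library, least allow small changes to be seen.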
